A study of Mus musculus with 5 samples.

Results

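The genes described here are 9 genes of Notch signalling and of the T-cell lineage, namely Notch1, Notch2, Hes1, Dtx1, Tcf7, Lef1, Gata3, Bcl11b and Zbtb16, examined in a list of EBF1 binding sites from mouse pro-B cells. The genes were chosen by name, with earlier results of these data known. A site belonged to a gene when its centre lay inside the gene span of RefSeq GRCm38. A site inside no protein-coding gene belonged to the nearest one within 100 kb. By this rule 26 of the 7494 sites belonged to the 9 genes, which are 9 of 21521 protein-coding genes. Hes1 and Notch1 had 7 sites each, Lef1 had 6, Tcf7 had 5 and Dtx1 had 1, while Notch2, Gata3, Bcl11b and Zbtb16 had none.

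The cells were fetal liver cells of genotype Ebf1-/- that had been transduced with wild-type EBF1, so that all EBF1 in them came from the transduced construct. The sources used here do not give the vector, its promoter or the age of the animals. The site list belongs to 1 library, the chromatin immunoprecipitation with an antibody against EBF1 from crosslinked, sonicated chromatin of these cells. The other 4 libraries (EBF1 immunoprecipitation from cells with the EBF1 form YmA, BRG1 immunoprecipitation from YmA cells, and an input for each antibody from EBF1 wt cells) were not analysed here, so no value below has a replicate, a control or a test. Each site is 300 bp wide and carries 1 of 3 class labels of the authors, YmA-dep, YmA-ind or CTD-ind. The sources used here do not say how the classes were assigned. The list holds no score, so read depth and site strength are unknown, and a count of 0 at a gene does not show that EBF1 was absent there.

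EBF1 is a transcription factor needed to enter the B lineage, and in its absence lymphoid progenitors keep the ability to take other fates. The T-cell fate is started by Notch signalling. A ligand on a neighbouring cell leads to cleavage of the Notch receptor, and the freed intracellular part enters the nucleus, joins the DNA-binding protein RBPJ and a Mastermind coactivator, and switches on targets such as Hes1 and Dtx1. In early T-cell progenitors the same signal leads to expression of Tcf7 and Gata3, and Bcl11b then fixes T-lineage commitment.

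None of the 11 RefSeq promoter windows of these genes (250 bases before to 50 after a transcript start, 7 genes with an entry) overlapped a site. Over all genes only 680 of 32851 windows did, so finding none among 11 does not set these genes apart. No sequence of the 26 sites themselves was used here. The windows follow the listed transcript starts, which need not be the outer end of the gene. At Tcf7 a CTD-ind site (chr11:52283331-52283630) spanned the outer end, chr11:52283383, which neither Tcf7 window covers. The windows are shown because they set genes with sites beside genes without. The first comes from Notch1, which shares the highest count, the second ends 66 bases from the site closest to a gene end, and the next 2 come from genes without a site. In the last, from Adam17, a protease that cleaves Notch receptors, a CTD-ind site covered all of the bases printed. Each is given as the 250 bases before the listed transcript start, 5′ to 3′ on the gene's strand. CCCNNGGG, the core of the palindrome bound by EBF proteins, is in capitals where it occurs. At Tcf7 and Bcl11b the listed start lies 369 and 731 bases inside the outer end of the gene. The sequences shown for Tcf7 and Bcl11b are therefore from within the gene span and not from before the gene. Notch1 is chr2:26503823-26504072 (minus strand), Tcf7 is chr11:52283015-52283264 (minus), Notch2 is chr3:98013288-98013537 (plus), Bcl11b is chr12:108003415-108003664 (minus) and Adam17 is chr12:21373633-21373882 (minus), all of GRCm38.p6 from RefSeq.
Notch1: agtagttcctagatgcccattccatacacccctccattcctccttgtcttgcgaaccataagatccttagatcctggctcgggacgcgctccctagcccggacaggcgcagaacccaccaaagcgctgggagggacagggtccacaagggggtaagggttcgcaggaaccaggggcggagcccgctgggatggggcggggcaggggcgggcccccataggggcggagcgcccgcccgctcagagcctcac
Tcf7: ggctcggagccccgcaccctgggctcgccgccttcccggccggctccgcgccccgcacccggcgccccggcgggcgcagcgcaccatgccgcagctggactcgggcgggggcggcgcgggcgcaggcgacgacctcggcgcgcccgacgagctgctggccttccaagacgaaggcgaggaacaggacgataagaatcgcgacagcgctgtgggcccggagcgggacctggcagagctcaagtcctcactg
Notch2: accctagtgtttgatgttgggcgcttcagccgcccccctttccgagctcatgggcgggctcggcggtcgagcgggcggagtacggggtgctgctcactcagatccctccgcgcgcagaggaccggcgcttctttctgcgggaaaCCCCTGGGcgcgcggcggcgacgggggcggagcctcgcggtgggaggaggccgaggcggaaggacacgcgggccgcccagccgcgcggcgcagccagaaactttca
Bcl11b: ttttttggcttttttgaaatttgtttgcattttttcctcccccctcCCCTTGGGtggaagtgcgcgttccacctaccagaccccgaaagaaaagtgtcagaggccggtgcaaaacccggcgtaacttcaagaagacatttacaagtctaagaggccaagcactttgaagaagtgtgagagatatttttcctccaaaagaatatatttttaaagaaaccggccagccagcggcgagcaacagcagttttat
Adam17: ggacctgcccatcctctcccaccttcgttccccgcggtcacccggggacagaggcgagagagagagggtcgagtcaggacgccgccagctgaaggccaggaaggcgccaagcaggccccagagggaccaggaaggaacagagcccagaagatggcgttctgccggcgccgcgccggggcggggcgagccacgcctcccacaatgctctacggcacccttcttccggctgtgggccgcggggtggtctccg

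Of the printed sequences, those of Notch2 and Bcl11b held the core and those of Notch1, Tcf7 and Adam17 did not. The printed windows were picked, so this is no contrast between genes with and without a site. In Notch2 the letters CCCCTGGG began 106 bases before the start, and in Bcl11b the letters CCCTTGGG began 204 bases before it. A further match, at Dtx1, which had a site, spanned the transcript start. The window of Gata3, which had no site, held none. The core was found in 13.7% of all 32851 promoter windows of the table, in 46.3% of the 680 windows that overlapped a site and in 13.0% of the rest. The longer EBF palindrome, the core with T before it and A after it, reads the same on both strands and was in none of the 11 windows, against 0.904% of all windows, 11.2% of those overlapped and 0.687% of the rest. With 7 of its 8 fixed letters, a search chosen after the data were seen, Notch1 and Dtx1 had a match and the other 5 genes had none, against 55.3% of overlapped windows and 15.7% of the rest. The Notch1 match lay after the start, outside the sequence shown.

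TGGGAA, the core of the RBPJ site, occurred on either strand in 3 of the 4 Lef1 windows, which overlap in part, and in no window of the other 6 genes, against 25.6% of all windows. CTTTGA, a core of TCF and LEF sites, occurred in 1 window of Lef1 and in that of Bcl11b, against 16.0%. TGTGGT, a RUNX core, occurred in none, against 16.8%. The E-box CANNTG was in 7 of the 11 windows, against 72.3%, and the ETS core GGAA was in all 11, against 96.0%.

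Of the 9 genes, 5 had at least 1 site (55.6%, exact 95% interval 21.2 to 86.3%), and 19.6% of all protein-coding genes did. The interval covers counting error only and starts just above the background of this rule. A site inside the gene or within 10 kb was found for the same 5 genes, against 22.3% of coding genes, a share that the interval contains. A count of 5 or more sites was reached by 4 of the 9, Notch1, Hes1, Lef1 and Tcf7, against 0.869% of coding genes. That count fell to 2, Notch1 and Tcf7, with a limit of 20 kb (0.599% of coding genes), with 50 kb (0.739%) and with sites inside or within 10 kb (0.627%). It fell to 1, Tcf7, where noncoding genes could also take sites (0.451%). With sites under 1 kb apart counted once it was 3, Notch1, Hes1 and Lef1 (0.720%), and Tcf7 had 4 sites. YmA-dep sites were at 3 genes (Notch1, Hes1 and Dtx1), against 3.26% of coding genes. YmA-ind sites were at 4 (Notch1, Hes1, Lef1 and Tcf7), against 12.2%, and CTD-ind sites were at 3 (Notch1, Hes1 and Tcf7), against 9.32%. The 9 genes were chosen with earlier results of these data known, so the counts are a description and not a test.

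**Figure D1:**
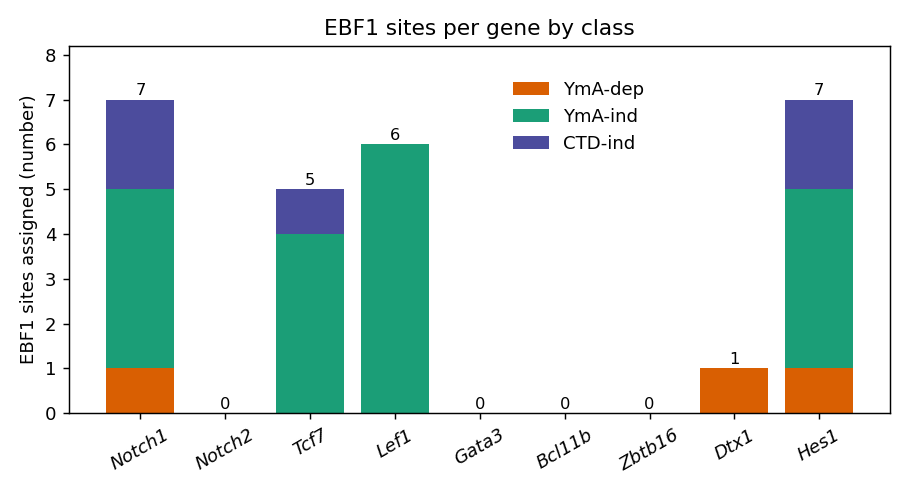
Number of EBF1 sites assigned to each of the 9 genes (vertical axis), stacked by the authors' site class; the number on top of each bar is the total. Hes1 and Notch1 reach 7, Lef1 6 and Tcf7 5, and 4 genes stand at 0.

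Among the receptors, Notch1 and Notch2 stood at opposite ends. Notch1, the receptor that drives the T-cell fate, spans chr2:26457902-26503822 (45.9 kb, minus strand) and had 3 sites inside and 4 upstream. Inside, a YmA-dep site (chr2:26483600-26483899) was centred 20.1 kb from the gene's start and 25.8 kb from its other end. YmA-ind sites followed at 16.8 kb (chr2:26486874-26487173) and 10.8 kb (chr2:26492871-26493170) from the start. These 3 sites formed a run, and all lay nearer the start than the other end of the gene.

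Upstream of Notch1 a second run of 3 sites combined both other classes. CTD-ind sites were centred 3.87 kb (chr2:26507542-26507841) and 9.69 kb (chr2:26513363-26513662) before the start. A YmA-ind site (chr2:26513936-26514235) lay 10.3 kb before it, with its centre only 573 bp from that of the second CTD-ind site. The farthest was a YmA-ind site at 26.3 kb (chr2:26529937-26530236). The upstream space runs 77.3 kb to the next coding gene, Egfl7. The downstream space of 11.6 kb to Sec16a held none. Where noncoding genes could also take sites, Notch1 kept 3 of its 7.

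Notch2, a receptor best known in B cells for the marginal zone fate, spans chr3:98013538-98150367 (137 kb, plus strand) and had no site. Its nearest site, of class CTD-ind (chr3:97185129-97185428, assigned to Acp6), was 828 kb away, and 12.3% of coding genes had their nearest site as far or farther. The stretch without sites around Notch2 measured 2.98 Mb, a length that was not compared with that at other coding genes. Of the other receptors, Notch3 had 2 sites, CTD-ind and YmA-ind, and Notch4 had none.

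Among the targets of the pathway, Hes1 and Dtx1 differed in where their sites lay. Hes1 encodes a repressor of transcription and is switched on directly by Notch in many tissues. It spans only 2.44 kb (chr16:30065357-30067796) and stands alone, with its coding neighbours Opa1 at 402 kb and Cpn2 at 189 kb. Its 7 sites all lay outside the gene, 6 below its lower end and 1 above its higher end. Closest were a CTD-ind site (chr16:30063345-30063644) at 1.86 kb and a YmA-ind site (chr16:30061375-30061674) at 3.83 kb from the lower end. These formed a pair, with their centres 1.97 kb apart.

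The other sites assigned to Hes1 were spread out, so their link to the gene rests on the distance limit. YmA-ind sites lay 26.0 kb (chr16:30039234-30039533) and 40.2 kb (chr16:30025053-30025352) below the lower end, both inside the noncoding gene 9030404E10Rik. A CTD-ind site at 55.5 kb (chr16:30009671-30009970) lay inside the noncoding gene 4632428C04Rik. A YmA-dep site lay at 68.9 kb (chr16:29996272-29996571), and the only site above the gene was YmA-ind, 77.9 kb from the higher end (chr16:30145577-30145876). With a limit of 20 kb Hes1 kept 2 sites, with 50 kb it kept 4, and where noncoding genes could also take sites it kept 2.

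Dtx1, which encodes the ubiquitin ligase Deltex, a modulator of Notch, spans chr5:120680203-120711867 (31.7 kb, minus strand) and had 1 site. It was YmA-dep (chr5:120704469-120704768), inside the gene, 7.25 kb from its start and 24.4 kb from the other end. Having 1 site or more is common (19.6% of coding genes). Dtx1 lies in a gene-dense stretch with Rasal1 0.606 kb and Oas2 18.5 kb away, so that little chromosome was left to it, 42.0 kb. Its relative Dtx2 had 4 sites, all inside the gene, 2 of them YmA-dep and 2 YmA-ind.

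**Figure D2:**
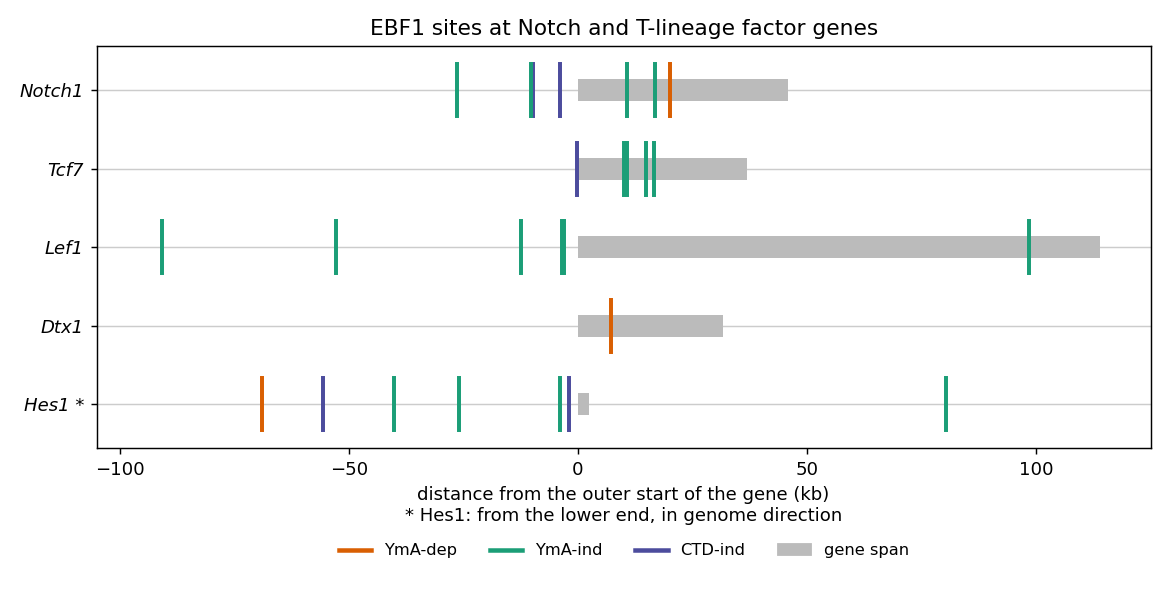
Position of the 26 EBF1 sites at the 5 genes with sites, as distance in kb from the gene's outer start in the direction of transcription (for Hes1 from its lower end in genome direction); grey bars are gene spans and coloured ticks are sites by class. Outside sites of Notch1, Tcf7 and Lef1 all lie left of the gene, and Hes1 has 6 of 7 on that side.

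Tcf7 and Lef1 encode related DNA-binding partners of beta-catenin, and both carried several sites. Tcf7, an early target of Notch in T-cell progenitors, spans chr11:52246527-52283383 (36.9 kb, minus strand). All 5 of its sites lay within 17.0 kb and formed 1 run. A CTD-ind site (chr11:52283331-52283630) was centred 97 bp outside the gene at its start and spanned that end. It was the only site of the 26 within 1 kb of a gene end. Such a site was found at 5.08% of coding genes.

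Inside Tcf7 lay 4 YmA-ind sites, in 2 groups. The pair closer to the start was centred at 9.99 kb (chr11:52273247-52273546) and 10.6 kb (chr11:52272587-52272886) from it, 660 bp apart. The other pair lay at 14.8 kb (chr11:52268415-52268714) and 16.6 kb (chr11:52266654-52266953). The part of Tcf7 beyond these sites, towards its overlap with Skp1, held none. Tcf7 kept its 5 sites, and Dtx1 its 1, under every distance limit tried.

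The transcript starts that RefSeq lists for the Tcf7 windows lie 369 and 788 bases inside the outer end of the gene, and that of Bcl11b lies 731 bases inside. That of Gata3 lies 9353 bases inside, that of Dtx1 198, and those of the inner Lef1 windows 26, 2494 and 45997. The windows of Tcf7, Bcl11b and Gata3 therefore did not cover the outer end of the gene. Measured from the Tcf7 starts, the CTD-ind site was centred 466 and 885 bases upstream. For Notch1 the distance from the listed start was the same 3869 bases as from the gene end. For the outermost Lef1 start it was 2895 bases.

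Lef1 is expressed in early T cells and in pro-B cells and spans chr3:131110297-131224357 (114 kb, plus strand). All 6 of its sites were YmA-ind, 5 upstream and 1 inside. A pair upstream, 518 bp apart, was centred 2.90 kb (chr3:131107253-131107552) and 3.41 kb (chr3:131106735-131107034) before the start, inside the noncoding gene Gm36603. Another site at 12.3 kb (chr3:131097852-131098151) completed a run. Farther upstream were sites at 52.9 kb (chr3:131057291-131057590) and 90.8 kb (chr3:131019330-131019629), in a space of 380 kb to the coding gene Rpl34.

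The site inside Lef1 (chr3:131208544-131208843) was far from the start, 98.4 kb, and 15.7 kb from the other end. It was the only inside site of the 9 at these genes that lay nearer the end than the start. Over all genes with a listed strand, 59.0% of 3338 inside sites lay nearer the start. Lef1 kept 4 sites with a limit of 20 kb, 3 when only sites inside or within 10 kb counted, and 1 where noncoding genes could take sites. Among relatives of Tcf7 and Lef1, Tcf7l1 had 2 YmA-ind sites inside the gene and Tcf7l2 had none.

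The remaining T-lineage factors lay in stretches without sites. Gata3, a zinc finger factor of T-cell specification, spans chr2:9857078-9887953, and its nearest site was YmA-ind at 218 kb (chr2:10106277-10106576, assigned to Itih2). As far or farther was the nearest site of 32.4% of coding genes, so Gata3 was not unusual in this respect. Bcl11b, the factor of T-lineage commitment, spans chr12:107910403-108004145, and its nearest site was YmA-ind at 754 kb (chr12:108758103-108758402, assigned to Yy1), with 13.5% of genes as far. Its paralog Bcl11a, a factor needed for B-cell development, had 3 sites.

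Zbtb16 encodes PLZF, the factor of innate-like T cells such as NKT cells, and spans chr9:48651797-48836225. Its nearest site was CTD-ind and 1.89 Mb away (chr9:50727950-50728249, assigned to Dixdc1), the farthest of the 9, and 3.57% of coding genes were as far or farther. The stretches without sites measured 2.99 Mb around Gata3, 3.16 Mb around Bcl11b and 4.67 Mb around Zbtb16. How common such lengths are over all coding genes was not computed. A nearest site over 200 kb away was found for 4 of the 9 genes and 34.0% of coding genes, and one over 700 kb away for 3 of the 9 and 14.5% of coding genes. The median over all coding genes was 82.8 kb.

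**Figure D3:**
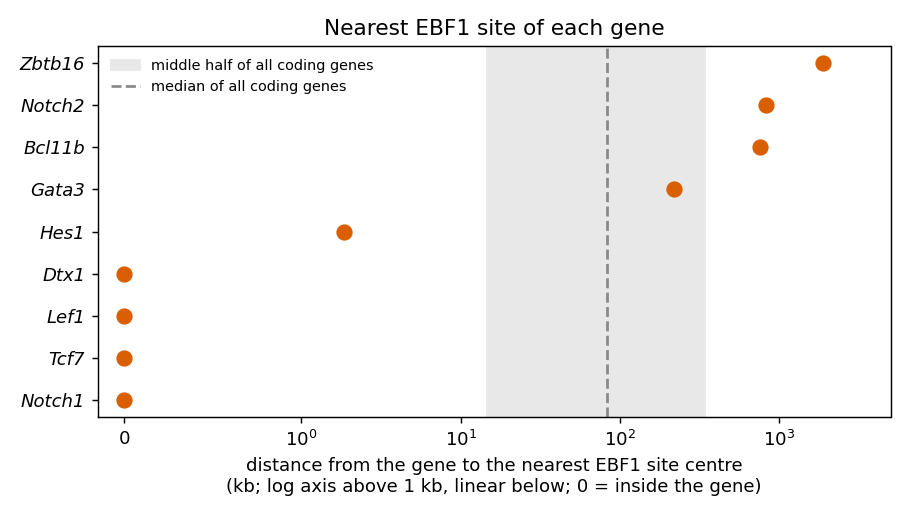
Distance from each of the 9 genes to the nearest EBF1 site centre (kb, log axis above 1 kb), with the middle range (25th to 75th percentile, grey) and the median (dashed, 82.8 kb) of all coding genes. Notch1, Tcf7, Lef1 and Dtx1 hold a site, Hes1 has one at 1.86 kb, and Notch2, Bcl11b and Zbtb16 lie beyond the grey range.

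Counted against the length of chromosome that the rule gave to each gene, measured on a 1 kb grid, Notch1 had 7.69 sites per 100 kb (91.0 kb) and Tcf7 had 6.67 (75.0 kb). Hes1 had 3.55 (197 kb), Lef1 2.75 (218 kb) and Dtx1 2.38 (42.0 kb). These 5 genes are those with a site, and the 9 genes together had 1.84 sites per 100 kb. Over all coding genes, those without a site included, the density was 0.381 sites per 100 kb. The 4 genes without a site held 788 kb together, in which that mean density gives 3.0 sites, against 0 found. The 5 genes with sites held 623 kb.

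By number, 57 of the 21521 coding genes (0.265%) had 7 or more sites, as Notch1 and Hes1 did under the main rule, though where noncoding genes could take sites these counts fell to 3 and 2. At least as many as Lef1 were at 100 genes (0.465%), and as many as Tcf7 at 187 (0.869%). Notch1 and Hes1 had the same make-up, 1 YmA-dep, 4 YmA-ind and 2 CTD-ind sites, shared in this 1 library with only Slit1 and Ttc7b. The make-up of Tcf7 was shared with 14 other genes, of which the first by symbol were 1700018B08Rik, Cacna1b and Chrna9. No other gene had that of Lef1.

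**Figure D4:**
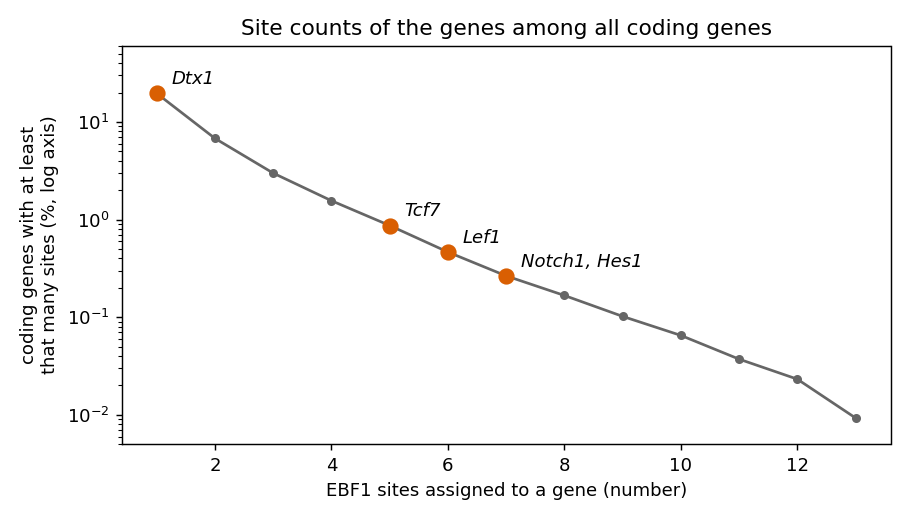
Share of coding genes (%, log axis) with at least the number of EBF1 sites on the horizontal axis; orange points mark 5 of the genes described. Notch1 and Hes1 stand at 0.265%, Lef1 at 0.465%, Tcf7 at 0.869% and Dtx1 at 19.6%.

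Most of the 26 sites were YmA-ind, 18 (69.2%, exact 95% interval 48.2 to 85.7%), against 54.1% of all sites. YmA-dep made up 3 (11.5%, 2.45 to 30.2%), against 11.9%, and CTD-ind 5 (19.2%, 6.55 to 39.4%), against 34.0%. Each interval contained the share over all sites, so no departure was detectable with 26 sites, and sites of 1 gene are not independent of each other. Without Hes1 the shares were 10.5% for YmA-dep, 73.7% for YmA-ind and 15.8% for CTD-ind.

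Inside the gene were 9 of 26 sites (34.6%, 17.2 to 55.7%), against 59.6% of the 7082 sites assigned to coding genes. Hes1, a gene of only 2.44 kb, had all 7 of its sites outside. Without Hes1, a comparison chosen after the data were seen, 9 of 19 lay inside (47.4%, 24.4 to 71.1%). That share was still below 59.6%, though its interval contained it. How much of the lower share comes from Hes1 was not tested. Within 1 kb of a gene end was 1 of 26 (3.85%, 0.0973 to 19.6%), against 16.1%. Sites outside the genes were centred between 0.097 and 90.8 kb from them, with a median of 12.3 kb, against 10.3 kb over all assigned sites outside their gene.

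For the genes whose strand the promoter table gives, all 10 outside sites (4 at Notch1, 1 at Tcf7, 5 at Lef1) lay upstream, against 61.5% of 2191 such sites over all genes. The space downstream was short at each of these 3 genes, with Sec16a 11.6 kb from Notch1, Hadh 9.06 kb from Lef1 and Skp1 overlapping Tcf7, so that few bases there could be assigned to them. How much of the upstream excess this sets was not tested.

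Sites at these genes stood close together. Runs of 3 or more sites with centres under 12.5 kb apart held 14 of the 26 (53.8%, 33.4 to 73.4%), namely 2 runs at Notch1 and 1 each at Tcf7 and Lef1, against 15.2% of all sites. A neighbour under 1 kb away was found for 6 of 26 (23.1%, 8.97 to 43.6%), the pairs at Notch1, Tcf7 and Lef1, against 5.62%. Of these pairs, that at Notch1 joined a CTD-ind and a YmA-ind site, and those at Tcf7 and Lef1 were YmA-ind throughout. The median distance to the nearest other site was 5.91 kb, against 23.3 kb over all sites. These intervals treat neighbouring sites as if they were separate draws. The closeness is also not separate from the high counts at Notch1, Tcf7 and Lef1, since the median coding gene with a site had only 1. No comparison was made with the sites of other genes that have as many.

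At the edge of the distance limit, the farthest site included was that of Lef1 at 90.8 kb. Just outside was a YmA-ind site nearest to Hes1 at 187 kb (chr16:29877835-29878134). No other site nearest to these genes lay beyond 100 kb.

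The rest of the Notch pathway was read from a list of 39 genes, all matched by symbol, of which 20 (51.3%) had a site, against 19.6% of coding genes. The 30 sites at the list comprised 3 YmA-dep, 14 YmA-ind and 13 CTD-ind. Of the ligands, Jag2 had a CTD-ind site centred 320 bp outside the gene (chr12:112929983-112930282), and Dll1 had a CTD-ind site whose edge overlapped a promoter window. Jag1, Dll3 and Dll4 had none, nor did Rbpj, the DNA-binding partner of the receptors. The Mastermind coactivator genes Maml1 and Maml3 had 2 sites each and Maml2 had 1, all inside these genes.

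Within 1 kb of a gene end lay sites at 8 of these 39 genes, against 5.08% of coding genes. Besides Jag2 these were the target Hes5 and its relative Hes6, the feedback inhibitor Nrarp, the glycosyltransferase genes Lfng and Pofut1, the protease gene Adam17, and the Numb-like gene Numbl. Hes5 had 3 sites, of which a CTD-ind pair lay at its start, the closer one 73 bp outside the gene (chr4:154960404-154960703). The site of Adam17 was centred 103 bp outside (chr12:21373586-21373885), that of Nrarp 204 bp outside, that of Numbl 330 bp inside, that of Lfng 368 bp outside, that of Pofut1 680 bp inside and that of Hes6 950 bp outside.

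The direct Notch targets thus differed in how near their sites lay. The nearest site was centred 73 bp from an end of Hes5, 204 bp from Nrarp, 1863 bp from Hes1 and 7249 bp from Dtx1. Heyl had 1 site 4.57 kb from an end, and Hey1 and Hey2 had none.

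A list of 42 other T-lineage genes and TCF partners had sites at 19 (45.2%), against 19.6% of coding genes. Of those with 3 or more sites, the transcription factor gene Ets1 had 6, the Groucho-family corepressor gene Tle3 had 5, Runx1, the E-protein inhibitor gene Id2 and the interleukin-2 receptor gene Il2ra had 4 each, and Runx2 and Bcl11a had 3 each. Of T-cell receptor complex and signalling genes, Cd3d had a YmA-ind site 445 bp inside an end, Zap70 a CTD-ind site and Lat 2 sites, while Cd3e, Cd247, Lck, Cd4, Cd8a, Thy1, Ptcra and Cd28 had none assigned. A site lay 71 bp outside Lyl1 (YmA-ind) and 638 bp outside Id2 (CTD-ind). Cd3d and Cd3g are neighbours, and a site lay within 10 kb of Cd3g and of Lck that was assigned to another gene.

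Both lists were written with earlier results of these data known. Their counts are descriptions of 1 library and were not tested. The list of T-lineage genes and TCF partners is not limited to genes particular to T cells, as it includes Bcl11a, a factor needed for B-cell development.

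**Figure D5:**
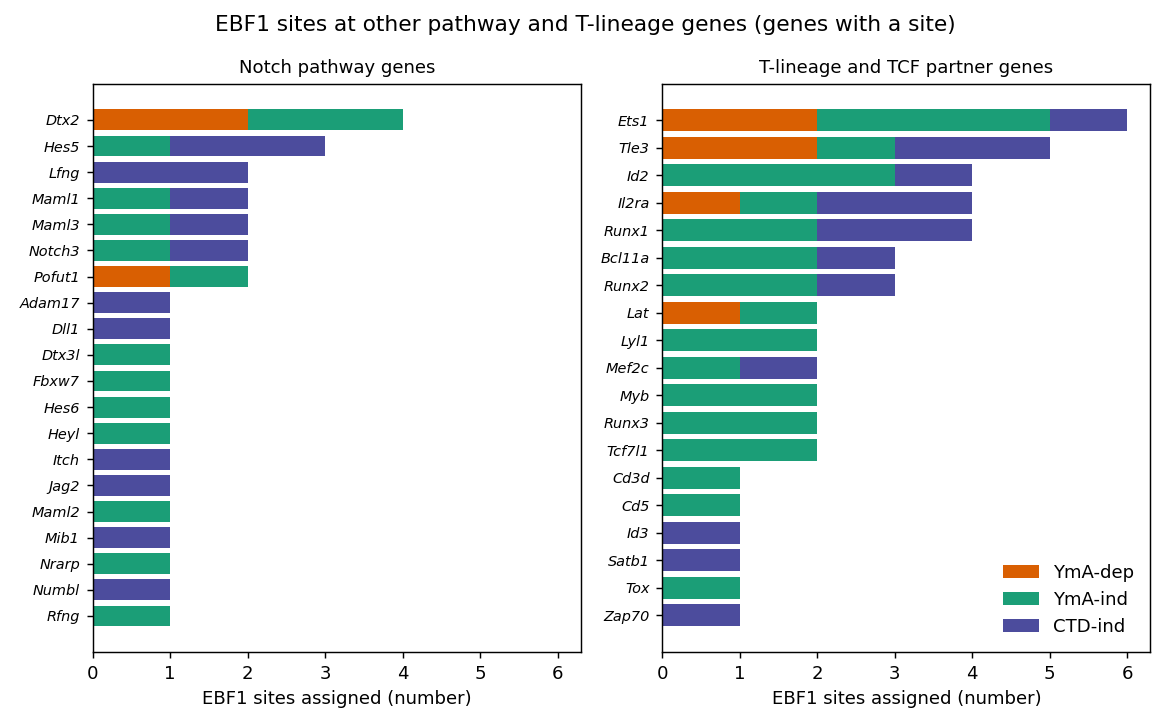
Number of EBF1 sites (horizontal axis) at the other Notch pathway genes (left, 20 of 39 with a site) and at other T-lineage and TCF partner genes (right, 19 of 42 with a site), stacked by class. Dtx2 leads the left panel with 4 sites and Ets1 the right with 6.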

How the data were processed

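Site positions came from 1 deposited list, that of the EBF1 immunoprecipitation with wild-type EBF1. Its values are chromosome positions in bp (0-based in the file, printed 1-based), with the authors' class as text. Per the submitters' processing notes, Bowtie2, SAMtools and deepTools were used with GRCm38 (mm10). The sources used here name no peak caller or threshold. Genes came from the RefSeq table of GRCm38.p6. Genes of scaffolds listed under a chromosome (345) were left out, which kept 49209 genes, 21521 protein-coding. Strand was taken from the RefSeq promoter table, which has no entry for Hes1 and Zbtb16.

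A site was represented by its centre and given to the shortest coding gene that held it, otherwise to the nearest within 100 kb. Shares carry exact 95% intervals (Clopper-Pearson), which describe counting error alone. Motifs were searched on both strands. The members and lists were chosen with earlier results of these data known. All 9 genes are named. Of the 2 other lists, genes with 3 or more sites or a site within 1 kb of an end are named by rule, and further genes were named after their values were seen. From these lists, 2 genes are not reported here and were left out of the counts. Alternatives changed the distance limit (20 kb, 50 kb, none), counted sites within 10 kb, let all genes compete, or counted sites under 1 kb apart once. The planned motif search in sites was not run, since no sequence of the sites was used here, and promoter windows took its place. The assignment was tested on simulated sites. Python 3.11.15, pandas 2.3.3 and SciPy 1.17.1 were used.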

Additional observations from a re-analysis of the deposited data

How the results depend on the processing

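The count of 5 genes with a site and the 4 genes without held in all 7 alternatives that reassigned or merged sites, and each class share stayed within its interval. The number of sites fell from 26 to 16 when only sites inside or within 10 kb counted, and to 12 where noncoding genes could also take sites. The former drops distant sites by construction, while the latter also moved near ones, such as those of Lef1 inside Gm36603. Under the latter Notch1 kept 3, Lef1 1 and Hes1 2, while Tcf7 kept 5 and Dtx1 1. Genes with 5 or more sites fell from 4 to 2 with limits of 20 and 50 kb and with the 10 kb flank, and to 1 with noncoding genes. Sites within reach of a gene end rose from 1 to 2 when near meant 2.5 kb. The background share of coding genes with a site, 19.6%, became 17.9% within 20 kb, 19.0% within 50 kb, 16.5% with noncoding genes and 22.3% with the 10 kb flank. Counting close sites once, chosen after seeing the data, gave 23 sites and 3 genes with 5 or more, as Tcf7 then had 4. No paired analysis was possible because each group holds 1 library and the result comes from no test. The list has no score, so no stricter threshold could be tried.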
